A study of Schizosaccharomyces pombe with 8 samples.

Results

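The gene rows described here are the non-coding RNAs of fission yeast (Schizosaccharomyces pombe) that lie antisense to a coding gene. A row of the deposited expression table was taken when its identifier begins with SPNCRNA, the prefix of fission yeast non-coding RNAs, and when at least 50% of its width is overlapped by a coding gene row on the other strand. SPNCRNA.1622 and SPNCRNA.1343 were left out. This gave 756 rows of 1553 SPNCRNA rows and 7022 gene rows in all, and the 756 lie opposite 706 coding rows. Levels were measured by poly-A enriched RNA-seq in 2 libraries of the wild-type strain OHI246 (h- leu1-32 ura4-D18 ade6-M210) and 2 libraries of the cwf10-ΔNTE strain OHI408, of mating type h- with the alleles ade6-M21X, leu1-32, ura4-D18 and cwf10 2-127-delta. The mutant lacks residues 2 to 127, the N-terminal extension, of Cwf10, a GTPase of the spliceosome that is called Snu114 in budding yeast. Both strains were grown at 25 °C in YE, a rich yeast extract medium. The cultures of a strain were grown together and processed separately from then on, so no p-value measures more than the spread between such samples, which may be technical. The wild-type libraries held 40857033 and 42802817 gene-row reads, the mutant libraries 36186264 and 42593150.

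Antisense RNAs are transcribed from the strand opposite a gene, so their sequence is complementary to its mRNA. In fission yeast many of them are kept at low levels by the nuclear exosome, by cytoplasmic decay, by RNA interference and by chromatin factors, and some of them lie opposite genes that are used only in meiosis. The spliceosome acts on the sense transcript: the splice signals of a coding intron do not stand in the antisense RNA.

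One limit applies to every value below. The kit was stranded, but the deposited counts did not separate the strands, judged from the values. Of the 244 antisense rows that lie wholly inside the coding row opposite them, 240 (98.4%) had no more reads than that coding row in each of the 4 libraries. Scarce antisense RNA counted by strand could also give this, so that count does not decide it alone. Per kb, the median antisense row had 0.945 times the reads of its coding row. Reads of the mRNA and of the antisense RNA are therefore taken here as not separable in an antisense row. Judged from loci such as crt10 below, the coding row appears to count exon reads, whereas an antisense row also counts reads in the coding gene's introns. This was not checked over all pairs. A change of an antisense row is given here in 2 ways: as its own level, and relative to the reads of the coding row in the same library. The test of the relative change takes the coding reads as fixed. It does not model their counting error, so its standard errors and p-values can be too small. A relative change means that the antisense stretch and the coding row did not move together; it does not say which strand moved.

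The introns of crt10 that touch SPNCRNA.15 are shown first, because SPNCRNA.15 rose relative to its coding row with intron reads among its own. They are read from the RefSeq genome (ASM294v3) on the plus strand, the strand of crt10, and capitals mark the first 6 and last 2 bases of each, the ends that the spliceosome joins across. They lie at II:1329000-1329081, II:1329416-1329457, II:1329556-1329596 and II:1329718-1329764.
crt10 intron at II:1329000-1329081: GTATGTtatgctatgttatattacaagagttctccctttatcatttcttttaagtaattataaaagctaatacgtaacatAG
crt10 intron at II:1329416-1329457: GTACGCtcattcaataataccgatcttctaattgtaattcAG
crt10 intron at II:1329556-1329596: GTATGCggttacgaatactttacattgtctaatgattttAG
crt10 intron at II:1329718-1329764: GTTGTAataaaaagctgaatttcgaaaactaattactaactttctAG
On the minus strand, which SPNCRNA.15 follows, the same stretch of the second of these introns begins with CT and ends in the complement of the splice site, both in capitals here.
II:1329416-1329457, strand of SPNCRNA.15: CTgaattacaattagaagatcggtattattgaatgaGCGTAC
The introns of cyp1, the gene of a cyclophilin, that touch SPNCRNA.739 are shown for the same reason, on the plus strand of chromosome I and with the same bases in capitals.
cyp1 intron at I:1368442-1368645: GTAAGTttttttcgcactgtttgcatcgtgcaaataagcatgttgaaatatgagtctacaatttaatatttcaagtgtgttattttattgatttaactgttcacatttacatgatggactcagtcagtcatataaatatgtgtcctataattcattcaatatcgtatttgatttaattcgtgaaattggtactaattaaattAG
cyp1 intron at I:1368726-1368807: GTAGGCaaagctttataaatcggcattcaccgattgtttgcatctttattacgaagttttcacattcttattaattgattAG
cyp1 intron at I:1368905-1368944: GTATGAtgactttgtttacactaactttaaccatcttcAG

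The first 300 bases of 3 antisense RNAs follow, on the strand of the RNA and from the same genome. SPNCRNA.1388 had the highest relative change among the rows named here, and capitals mark the 237 bases that the shorter row SPNCRNA.34 shares with it.
SPNCRNA.1388, II:835808-836107, plus strand: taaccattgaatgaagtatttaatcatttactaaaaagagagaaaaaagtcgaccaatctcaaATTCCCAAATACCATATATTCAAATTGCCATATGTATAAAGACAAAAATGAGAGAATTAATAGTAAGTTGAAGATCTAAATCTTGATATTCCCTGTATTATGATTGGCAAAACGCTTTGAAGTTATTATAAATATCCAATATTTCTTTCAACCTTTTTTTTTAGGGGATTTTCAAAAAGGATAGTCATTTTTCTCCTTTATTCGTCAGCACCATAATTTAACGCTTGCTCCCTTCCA
SPNCRNA.571, opposite the meiotic cyclin gene rem1, had the highest level change. Capitals mark a run of 31 bases of alternating C and T.
SPNCRNA.571, II:1953038-1953337, plus strand: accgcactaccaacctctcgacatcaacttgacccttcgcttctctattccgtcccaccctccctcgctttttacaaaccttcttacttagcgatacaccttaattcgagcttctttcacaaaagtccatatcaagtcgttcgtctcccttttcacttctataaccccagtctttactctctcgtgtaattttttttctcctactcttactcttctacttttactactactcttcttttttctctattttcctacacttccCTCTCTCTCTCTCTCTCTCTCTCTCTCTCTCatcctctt
SPNCRNA.1606 fell relative to its coding row while neither row overlaps a further gene row. Capitals mark TNAAAC, the hexamer that the RNA-binding protein Mmi1 recognises in meiotic transcripts (as UNAAAC in RNA).
SPNCRNA.1606, II:3494143-3494442, minus strand: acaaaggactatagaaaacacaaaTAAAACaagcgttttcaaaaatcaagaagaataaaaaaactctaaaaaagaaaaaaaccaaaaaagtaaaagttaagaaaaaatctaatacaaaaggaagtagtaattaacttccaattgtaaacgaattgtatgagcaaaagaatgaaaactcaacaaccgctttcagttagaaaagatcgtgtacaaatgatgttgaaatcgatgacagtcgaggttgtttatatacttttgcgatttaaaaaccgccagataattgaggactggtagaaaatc

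The hexamer was searched as TNAAAC on each strand separately, with overlapping matches counted once per window. Among the 737 antisense rows of at least 300 bases, it stood in the first 300 bases of 354 (48%) on the RNA's own strand and of 316 (42.9%) on the other strand. In the first 300 bases of 5119 coding rows the shares were 45.2% and 48.6%. The median G+C content was 36.3% for antisense rows and 36.7% for coding rows, and 31.7% for the 239 SPNCRNA rows that overlap no other gene row. Antisense rows share most of their DNA with coding rows by construction, and no change in the mutant was read from these letters.

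The antisense rows were long and mostly deep in the coding row. Their widths ran from 76 to 5113 bases with a median of 1301, and the median row had 90.6% of its width under the coding row. There were 341 on chromosome I, 274 on II and 141 on III. While 244 lay wholly inside the coding row, 103 covered it whole. A further row besides the partner was overlapped by 376 of them, and 95 shared a coding row with another antisense row, with 4 on eta2. At least 1 intron of the opposite coding gene was touched by 258 of them, and these introns numbered 499. Of the 499, 99.2% begin with GT and end in AG, against 98.7% of all 5358 intron rows on the 3 chromosomes. The coding rows of the table can be longer than the current gene models: at RefSeq coordinates, 88 of 748 antisense rows with a partner in the annotation lie under 50% inside it, and 37 do not overlap it at all.

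Read content followed the coding rows. The share of gene-row reads that fell on antisense rows was 5.177% and 5.125% for wild type, against 5.17% and 5.132% for the mutant. These shares overlapped between the strains, at 5.151% ± 0.0362 and 5.151% ± 0.0264 (SD, n = 2 each; exact two-sided permutation test, p = 1, where 2 against 2 libraries cannot go below 0.33). Per kb, the median antisense row had 0.945 times the reads of its coding row, with quartiles of 0.728 and 1.105. The median row had 5202 reads over the 4 libraries, and 2 rows had none. The deepest was SPNCRNA.639, wholly inside the row of mcp60, the mitochondrial chaperonin, with 66234, 70096, 72256 and 83690 reads.

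Antisense rows were higher in the mutant more often than they were lower. Of 751 tested, 366 (48.7%) rose and 224 (29.8%) fell at an adjusted p under 0.05 (edgeR quasi-likelihood test with Benjamini-Hochberg, BH, adjustment). Over all 6536 gene rows tested, 39.6% were higher and 38.5% lower, 78.1% in all, so the share of antisense rows called, 78.6%, was that of any gene row. The median log2 change was 0.10 for antisense rows, 0.01 for all gene rows and 0.04 for the 702 coding rows opposite them. Of the calls, 62% were rises, and scaling by library totals alone made this 72.8% (432 rises and 161 falls), with all gene rows moving from 50.6% to 63.4%. Most calls were small, since the spread between replicates was low (biological coefficient of variation 1.49%). A change of at least 2-fold was called in 41 of the 751 antisense rows, 38 higher and 3 lower. Over all gene rows it was called in 301 of 6536 (4.61%) in either direction. The split of these by direction was not counted, so the 38 and 3 are not shown to be particular to antisense rows. In 38 of the 41 the coding row was called in the same direction. SPNCRNA rows that overlap no other gene row, whose reads no annotated gene shares, rose in 65 and fell in 25 of 151 tested, with a median of 0.25.

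Antisense row and coding row moved together in most pairs. Of 750 pairs with both rows tested, both rose in 311 and both fell in 210. Neither was called in 88. They went opposite ways in 30, with the antisense row up and the coding row down in 23 and the reverse in 7. Because the rows share reads, a change of 1 transcript on either strand moves both.

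**Figure D1:**
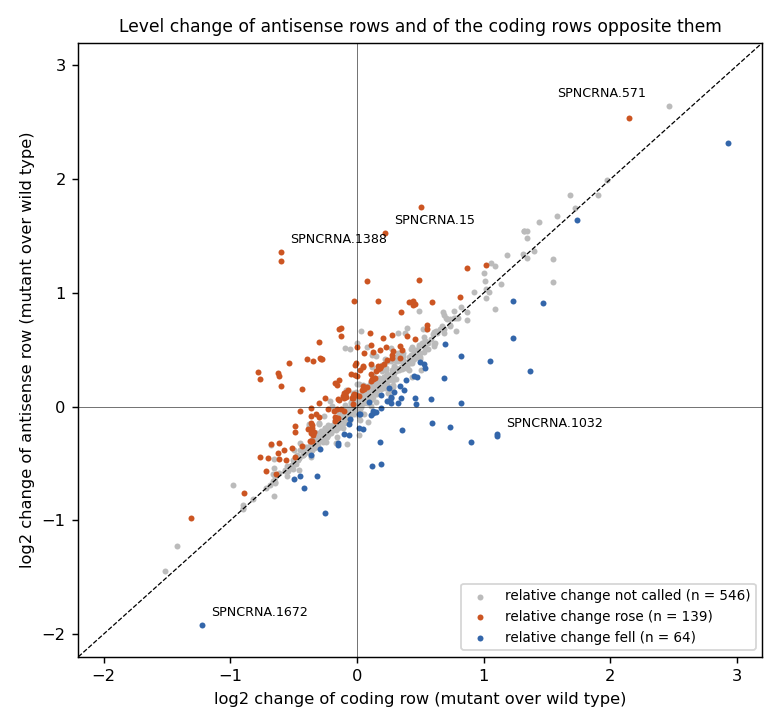
Level change of each antisense row (y axis, log2, mutant over wild type) against that of the coding row opposite it (x axis, log2) for the 749 pairs tested in both fits, coloured by the call of the relative change; the dashed line marks equal change. No relative change was called for 546 points, and antisense rows without such a call ran from -0.52 to 0.64 in relative change (log2). SPNCRNA.1388 and SPNCRNA.15 stand above the line.

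The 5 rows with the highest level changes lay opposite coding rows that rose too, and 2 of the 5 also had a relative change called. SPNCRNA.571 (chromosome II, 1953038 to 1954662), whose first bases are printed above, had 62 and 51 reads in wild type against 314 and 390 in the mutant. The rem1 row opposite it had 58 and 50 reads, then 264 and 329. Neither pair of strains overlapped, and the level changes were 2.64 ± 0.13 for SPNCRNA.571 and 2.46 for rem1 (log2 ± SE; BH-adjusted p = 2.49e-16 and 2.84e-15). The relative change, 0.20, did not pass the test (BH-adjusted p = 0.295). A further antisense RNA, SPNCRNA.1481, overlaps both rows. The rem1 intron inside SPNCRNA.571 had 2 and 4 reads in wild type against 20 and 23 in the mutant.

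SPNCRNA.1309 showed the same pairing without any further row. It lies opposite alr2, an alanine racemase gene, at chromosome II, 107514 to 108774. It had 542 and 565 reads in wild type against 2063 and 2319 in the mutant, and alr2 had 611 and 643, then 2308 and 2586. Both rose, by 1.99 ± 0.05 and 1.97 (log2), and the relative change was 0.02 ± 0.02 (BH-adjusted p = 0.82). SPNCRNA.1209 and SPNCRNA.1292, opposite SPCC13B11.03c and SPCC70.08c, rose by 2.54 and 1.86, with their coding rows at 2.15 and 1.90. SPNCRNA.1209 rose relative to SPCC13B11.03c as well, by 0.40 ± 0.08 (BH-adjusted p = 0.0251), while the -0.04 of SPNCRNA.1292 was not called (BH-adjusted p = 0.451). SPNCRNA.1344 rose by 2.32, from 514 and 497 reads to 2345 and 2678, while its coding row SPBC1271.08c rose by 2.93, so that its relative change was -0.60 ± 0.05 (BH-adjusted p = 0.00262).

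The lowest level changes also lay opposite coding rows that fell. SPNCRNA.991, opposite mfs1 (chromosome I, 4472218 to 4473227), had 5105 and 5303 reads in wild type against 1698 and 2112 in the mutant. It fell by 1.44 on the log2 scale and mfs1 fell by 1.51, with no further row over either. SPNCRNA.1611 covers hhf3, a histone H4 gene, and its reads were nearly those of hhf3: 21983, 22671, 10954 and 12824 against 21971, 22659, 10933 and 12806. Both fell by 0.90, and the relative change was 0.00 (BH-adjusted p = 0.969). SPNCRNA.1611 also overlaps hht3, which fell by 0.65, and rsv2, which rose by 0.39. The hht3 row overlaps that of hhf3 as well. SPNCRNA.675, opposite rgs1, a regulator of G protein signalling, fell by 0.98 while rgs1 fell by 1.31, so that relative to rgs1 it rose by 0.33 ± 0.03 (BH-adjusted p = 0.00385). SPNCRNA.1672 fell by 1.92, the most of all antisense rows, from 1202 and 1339 reads to 312 and 354. Its coding row cnp3, which encodes the centromere protein CENP-C, fell by 1.22, and SPNCRNA.1674 and SPNCRNA.1673, which overlap it, fell by 1.002 and 0.88.

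Relative to the coding row, most antisense rows did not pass the test. Of 750 tested, 139 (18.5%) rose and 64 (8.53%) fell, 203 (27.1%) in all (edgeR quasi-likelihood with coding reads as offset, at an adjusted p under 0.05). Over all 1389 opposite-strand pairs tested, these included, 36.6% were called, 20.6% higher and 16% lower; the difference between these shares was not tested. Coding rows that lie opposite another coding row gave 147 higher and 158 lower of 632. The median relative change was 0.01 for antisense rows and 0.01 for all pairs. A call of at least 1.5-fold was made in 38 of the 750 antisense rows, 24 of them higher. Over all pairs it was made in 61 of 1389 (4.39%) in either direction, and the split of these by direction was not counted. Leaving out 1 library left 99 to 106 rises and 40 to 46 falls, and DESeq2 called 76 and 33.

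The highest relative change was at SPBC36.01c on chromosome II, in 2 rows that RefSeq names prl34. SPNCRNA.1388 (835808 to 836248) had 99 and 80 reads in wild type against 197 and 260 in the mutant, and SPNCRNA.34 (835871 to 836243), inside it, had 85 and 70, then 157 and 218. The coding row went the other way, from 2449 and 2587 reads to 1494 and 1814. The strains did not overlap in any of these. Per 1000 coding reads, SPNCRNA.1388 had 40.4 and 30.9 reads in wild type against 132 and 143 in the mutant. This was a relative change of 1.96 ± 0.13 (log2 ± SE; BH-adjusted p = 0.00154), with 1.88 ± 0.14 for SPNCRNA.34, whose reads are a subset of the same stretch. The level of SPNCRNA.1388 rose by 1.36 and that of SPBC36.01c fell by 0.60.

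The stretches beside SPNCRNA.1388 show where along the coding row this lay. In wild type its reads were thinner than those of either side, at 5.62 and 4.38 CPM per kb (CPM: reads per 1000000, scaled as the gene rows) against 18.4 and 18.7 on the side toward the 3′ end of SPBC36.01c and 7.65 and 7.60 on the other side, which also holds most of SPBC36.02c. In the mutant they were denser than either side, at 12.0 and 13.5 against 10.18 and 10.25 on the 3′ side and 6.25 and 6.96 on the other. No coding intron touches the row, and its whole width also lies inside the RefSeq gene.

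SPNCRNA.15, named prl15 in RefSeq, lies wholly inside crt10 (chromosome II, 1329046 to 1329760) and had the third highest relative change. It had 323 and 337 reads in wild type against 893 and 997 in the mutant, while crt10 had 989 and 987, then 1082 and 1209. Per 1000 crt10 reads this was 327 and 341 against 825 and 825, a relative change of 1.30 ± 0.03 (log2 ± SE; BH-adjusted p = 0.000263). Its level rose by 1.53 and that of crt10 by 0.22. The 4 crt10 introns printed above held 23 and 35 reads in wild type against 173 and 232 in the mutant, which equals 7.12% and 10.4% of the reads of SPNCRNA.15 in the former strain and 19.4% and 23.3% in the latter. Without the reads of introns wholly inside it the relative change was 1.18. Against the rest of the crt10 row, with the reads of SPNCRNA.15 taken away, it was 3.23. This also takes away reads, such as those in introns, that the crt10 row appears not to hold.

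The stretches beside SPNCRNA.15 changed less than it did. Its density went from 11.3 and 11.4 CPM per kb to 33.6 and 31.9. The next 944 bases of crt10 had 13.1 and 12.9 in wild type against 13.2 and 13.4 in the mutant, and the 338 bases before it had 4.22 and 4.50 against 8.27 and 6.76. In means over libraries SPNCRNA.15 gained 15.3 CPM (from 8.11 ± 0.04 to 23.4 ± 0.86, SD, n = 2 each), whereas the crt10 row, which spans it, gained 4.06 CPM. The crt10 count therefore left out most of the reads gained in this stretch. Whether they came from unspliced crt10 RNA or from the antisense strand cannot be told apart in counts without strand.

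**Figure D2:**
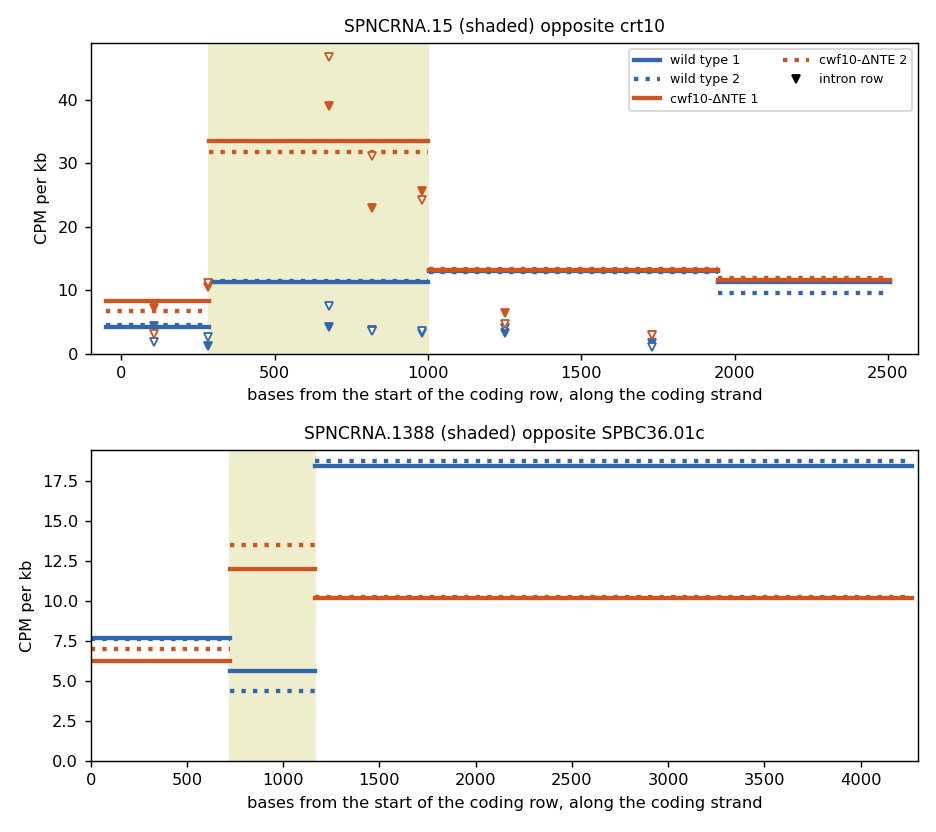
Read density (y axis, CPM per kb) along the coding rows of crt10 and SPBC36.01c, by distance in bases from the start of the coding row (x axis); horizontal lines are the antisense row (shaded) and the stretches beside it in each of the 4 libraries, and triangles are coding introns (filled for replicate 1). In the mutant SPNCRNA.15 lies at 33.6 and 31.9 and SPNCRNA.1388 at 12.0 and 13.5, above the stretches beside them.

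The other 7 of the 10 rows with the highest relative changes each overlap a further row or have a coding row that spans another gene. SPNCRNA.384, opposite top2, which encodes DNA topoisomerase II, had 194 and 211 reads in wild type against 357 and 411 in the mutant. Its coding row had 8201 and 8429, then 7416 and 8861. Scaled for depth, SPNCRNA.384 went from 4.86 and 5.10 CPM to 9.59 and 9.39, whereas top2 had 205.3 and 203.5 CPM, then 199.3 and 202.4, and was not called. The relative change was 0.95 ± 0.05 (BH-adjusted p = 0.00116), with the level of SPNCRNA.384 up by 0.93. It also partly overlaps SPBC1A4.04, which rose by 0.26, and lies outside the RefSeq extent of top2. SPNCRNA.498, a row of 100 bases opposite yea4 and inside ipa1, had 33, 56, 84 and 107 reads. Its relative change of 1.03 ± 0.24 (BH-adjusted p = 0.0369) was not called without wild-type replicate 1 (BH-adjusted p = 0.0736), mutant replicate 1 (0.0998) or mutant replicate 2 (0.162).

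In the remaining 5 the coding row fell while the antisense row rose, except SPNCRNA.321, whose level of 0.24 was not called. SPNCRNA.141, opposite the ribosomal protein gene rps101, had 105 and 103 reads in wild type against 124 and 146 in the mutant beside 72928, 75445, 47808 and 53866 for rps101. It lies inside gpi7 and outside the RefSeq extent of rps101, and its density was 0.00421 times that of the rps101 row, the lowest of all antisense rows. SPNCRNA.1484 changed by 0.93 against the pdp1 row, with 1485, 1429, 1624 and 1943 reads. The pdp1 row spans the ribosomal protein gene rps902, which lies on the strand of SPNCRNA.1484 and fell by 0.65. Nearly all reads of the pdp1 row can be those of rps902: 67445, 70879, 42256 and 46732 against 65886, 69379, 40583 and 44721. A change relative to pdp1 without rps902 was not tested. SPNCRNA.602 opposite nhe1, a sodium and proton antiporter gene, changed by 1.09. SPNCRNA.321 opposite pfl3, a cell-surface flocculin gene, changed by 1.01, and SPNCRNA.329 opposite SPBC530.15c by 0.86. SPNCRNA.602, SPNCRNA.321 and SPNCRNA.329 do not overlap the RefSeq extent of their coding genes.

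In 8 of the 10 rows with the lowest relative changes the coding row rose. SPNCRNA.1032 and SPNCRNA.254, overlapping rows at the start of SPAC4F10.16c, had 358, 375, 302 and 309 reads and 563, 609, 469 and 516 reads. SPAC4F10.16c had 3745 and 3807 in wild type against 7346 and 8867 in the mutant. The relative changes were -1.36 ± 0.09 and -1.35 ± 0.06 (log2 ± SE; BH-adjusted p = 0.00149 and 0.000812), while the levels fell by 0.25 and 0.24. Both rows lie outside the RefSeq extent of that gene. SPNCRNA.1290, opposite SPCC70.04c, had 1841, 2031, 1419 and 1695 reads where the coding row had 391, 442, 720 and 827. It changed by -1.21 ± 0.03 (BH-adjusted p = 0.000237) and also overlaps put1, a proline dehydrogenase gene with 19399, 20347, 13244 and 15741 reads. The level change of SPCC70.04c had a larger standard error, at 0.90 ± 0.07 (log2 ± SE). SPNCRNA.827 changed by -1.03 against meu26, a gene named for its meiotic expression, and overlaps tif212, a translation initiation factor gene that fell by 0.55.

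SPNCRNA.1197 and SPNCRNA.1672 changed by -0.91 and -0.70 relative to cbl1, a cystathionine beta-lyase gene, and cnp3, and lie outside the RefSeq extents of both. SPNCRNA.1317, inside mal1, a maltase gene, changed by -0.79 ± 0.14 (BH-adjusted p = 0.0161). Its call was lost without mutant replicate 1 (BH-adjusted p = 0.0501) and without mutant replicate 2 (0.0793). The mal1 row also spans urh1, which rose by 1.19.

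**Figure D3:**
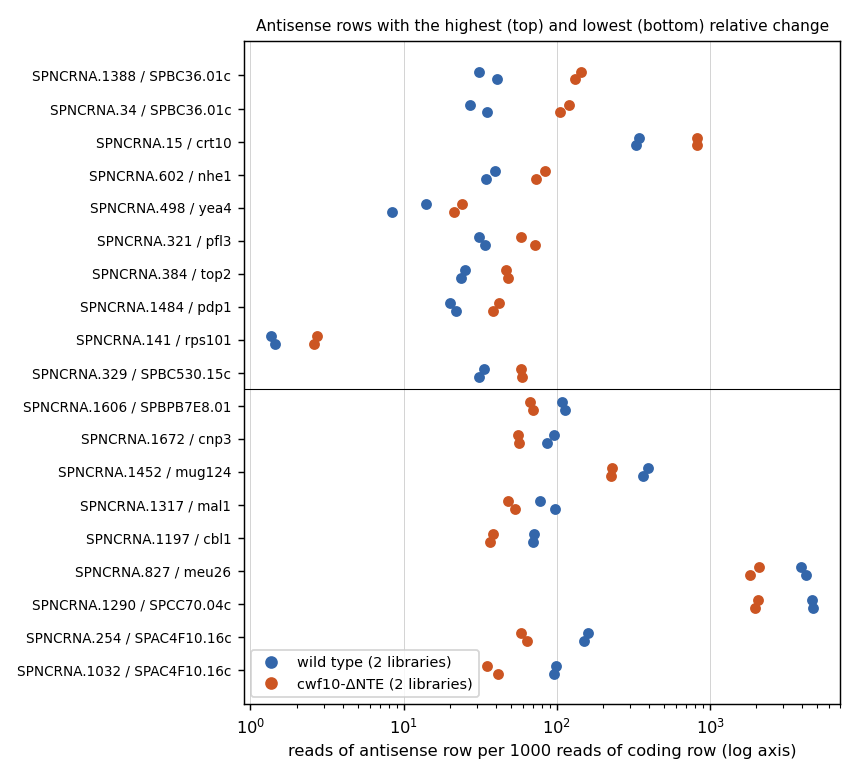
Reads of the antisense row per 1000 reads of the coding row (x axis, log scale) in each library for the 10 antisense rows with the highest relative change and 9 of the 10 with the lowest that met the naming rule; each point is 1 library. In all 19 the points of the strains do not overlap, as the rule required, and SPNCRNA.1388 goes from 40.4 and 30.9 to 132 and 143.

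SPNCRNA.1606 fell relative to its coding row with no further gene row over either of them and no intron touched. SPNCRNA.1606 (chromosome II, 3491435 to 3494442) had 2426 and 2371 reads in wild type against 1568 and 1801 in the mutant. The coding row SPBPB7E8.01 had 21553, 21874, 22454 and 26905 reads and rose by 0.19. The level of SPNCRNA.1606 fell by 0.50, and its relative change was -0.69 ± 0.03 (BH-adjusted p = 0.000746). At RefSeq coordinates only 7.35% of it lies inside the gene.

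Pairs with the simplest annotation had few relative changes, though no difference between classes of pairs was tested. In 204 pairs neither row overlaps a further gene row, and of 201 tested, 22 rose and 5 fell (13.4%). The called changes in these pairs ran from -0.69 to 0.70. Where no coding intron was touched either, 7 rose and 4 fell of 132 (8.33%). These 7 were small, between SPNCRNA.923 opposite ctr5, a copper transporter gene, at 0.09, and SPNCRNA.1181 opposite rgf3 at 0.20. SPNCRNA.92, inside pma1, the plasma membrane proton pump gene, changed by 0.16 relative to pma1, with 5793 and 5962 reads, then 6306 and 8457.

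SPNCRNA.1661 is among these 7 and lies opposite cwf10 itself. It covers the 3′ part of the gene (chromosome II, 4054164 to 4055996) and begins 1601 bases after the start of the cwf10 row, past the deleted stretch at the 5′ end. It had 3339 and 3617 reads in wild type against 3291 and 4121 in the mutant, and the cwf10 row had 5666, 6065, 5096 and 6310. SPNCRNA.1661 rose by 0.10 in level and by 0.13 ± 0.01 relative to cwf10 (BH-adjusted p = 0.00242), and the cwf10 row changed by -0.03 (BH-adjusted p = 0.216). The stretch that holds the 5′ part of cwf10 went from 21.1 and 21.6 CPM per kb to 18.8 and 19.4, and the deletion lies in that part. The cwf10 row that serves as offset spans the deleted stretch, from which the mutant can give no reads. By design this lowers the offset in the mutant. How much it adds to the relative change was not tested.

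Antisense rows that touch coding introns included a larger share that rose. Of 258 such rows 69 rose (26.7%) and 14 fell (5.43%), and of 492 rows without one 70 rose (14.2%) and 50 fell. The share that rose was 18.3% with 1 intron touched, 26.1% with 2 and 44.4% with 3 or more, where 28 of 63 rose and 4 fell and the median was 0.11. In simple pairs it was 15 of 69 with an intron and 7 of 132 without. The reads of the 499 introns numbered 15706 and 16161 in wild type against 20925 and 24857 in the mutant. Per 1000 reads of the antisense rows they touch, this was 19.8 ± 0.14 for wild type and 30.2 ± 0.50 for the mutant (SD, n = 2 each), with no overlap between the strains. Where antisense rows overlap each other, shared reads count more than once in this measure. It was not taken for other introns, so it does not set these apart from any intron. With the reads of introns wholly inside them taken away, 124 antisense rows rose and 64 fell, against 139 and 64. Reads across intron edges could not be taken away, so their part in the remaining rises was not tested.

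SPNCRNA.739, inside cyp1, had the highest change in a simple pair. It had 460 and 465 reads in wild type against 548 and 680 in the mutant, while cyp1 had 1566, 1564, 1186 and 1369. It rose by 0.41 in level where cyp1 fell by 0.29, a relative change of 0.70 ± 0.05 (BH-adjusted p = 0.00159). The 3 cyp1 introns printed above held reads equal to 17% and 18.5% of its own in wild type, and to 25% and 24.3% in the mutant. SPNCRNA.1160 inside gir2 also touches 3 introns and rose by 0.12 while gir2 fell by 0.10, with 2566, 2656, 2605 and 3043 reads. The checkpoint kinase gene cds1 has SPNCRNA.1155 inside it, with 4 introns touched and a relative change of 0.21.

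**Figure D4:**
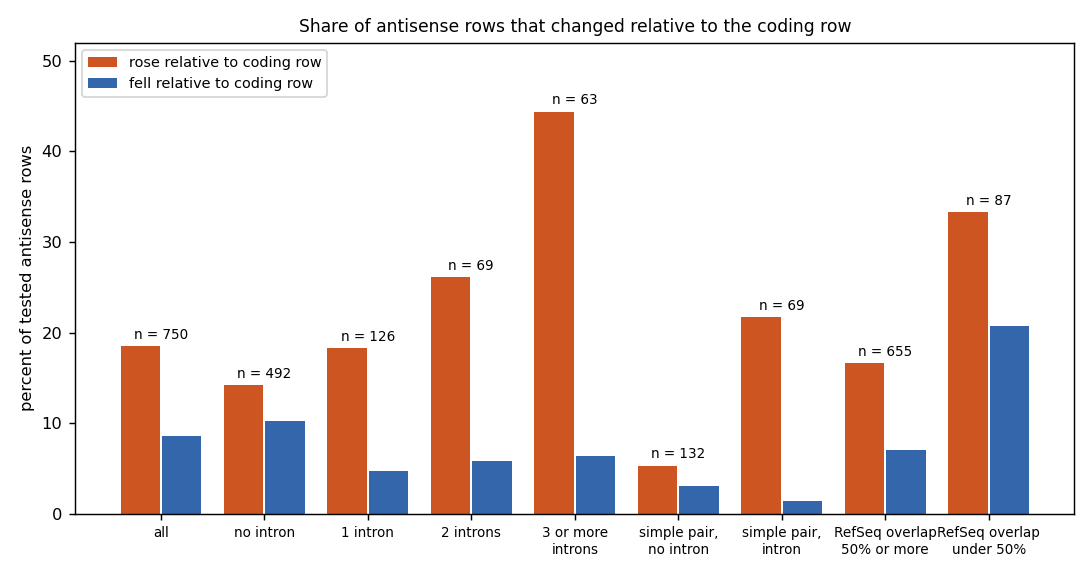
Percent of tested antisense rows (y axis) that rose or fell relative to the coding row, for all rows and by the number of coding introns touched, by simple pairs (neither row overlaps a further gene row) and by overlap with the coding gene at RefSeq coordinates; n is the number tested. The share that rose goes from 14.2% without an intron to 44.4% with 3 or more, and is 5.3% in simple pairs without an intron.

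The extent of the coding row in the table also divided the rows. Of 655 antisense rows that keep 50% overlap at RefSeq coordinates, 109 rose and 46 fell (23.7%). Of 87 that do not, 29 rose and 18 fell (54%). In these the antisense row and the current gene model share less DNA than the table's coordinates give. Of the 100 rows with a density ratio to their coding row of 0.5 or less, 34 rose and 11 fell.

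Several antisense rows can lie opposite 1 coding row. Of 45 coding rows with more than 1 antisense row, 22 had none called, 5 had all of them rise and 3 had all of them fall. Both directions were seen at eta2 and at mug124, a gene upregulated in meiosis. Inside mug124, SPNCRNA.1452 (chromosome II, 1685386 to 1685983) had 340 and 393 reads in wild type against 299 and 360 in the mutant. SPNCRNA.1453 (1686427 to 1687926) had 550 and 566, then 968 and 1136. The relative changes were -0.74 ± 0.05 and 0.33 ± 0.03 (BH-adjusted p = 0.00149 and 0.00339), against a mug124 row that rose by 0.59. SPNCRNA.1453 has 54.4% of its width inside the RefSeq gene and SPNCRNA.1452 has 100%.

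Genes with meiotic symbols, which begin with mug, meu, mde, mcp (without mcp60), mei, spo or rec, were opposite 45 antisense rows. This rule leaves out meiotic genes with other symbols, such as rem1 opposite SPNCRNA.571. Of these rows 26 rose and 10 fell in level, with a median of 0.19, against 48.7% and 29.8% of all antisense rows. Relative to the coding row 3 rose and 8 fell (6.67% and 17.8%), against 18.5% and 8.53% of all antisense rows; the difference was not tested. SPNCRNA.1180, inside the meiotic cohesin gene rec11, had 184 and 182 reads in wild type against 476 and 586 in the mutant. Its level rose by 1.54 ± 0.09 and that of rec11 by 1.34, and the relative change of 0.20 did not pass the test (BH-adjusted p = 0.0649). SPNCRNA.1217 and SPNCRNA.583 lie opposite mug27, a protein kinase gene, which rose by 1.23. They rose by 0.61 and 0.93 in level and so fell by 0.62 and 0.30 relative to mug27 (BH-adjusted p = 0.000263 and 0.011). SPNCRNA.760 opposite rec12, the gene of the protein that makes meiotic DNA breaks, rose by 0.35 in relative terms and touches 4 introns.

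Genes known to limit or remove antisense RNA changed in both directions in the mutant. Of 25 genes of the nuclear exosome and its TRAMP and MTREC cofactors, 16 fell and 5 rose (median -0.15, log2). Over all gene rows 38.5% were lower and 39.6% higher, with a median of 0.01, and the counts of the other lists below stand beside the same shares. The helicase gene mtr4 fell by 0.70 and the nuclease gene dis3 fell by 0.45, while mmi1 rose by 0.23 and pab2, a nuclear poly-A binding protein gene, rose by 0.11. Of 13 genes on the list of cytoplasmic decay 7 fell and 5 rose (median -0.07), with exo2, the 5′ to 3′ exonuclease gene, down by 0.51 and lsm1 down by 0.48. Its member with the highest rise, pat1 at 0.73, names in fission yeast the kinase that restrains meiosis and not a decay factor. Without it 4 of 12 rose, among them upf3 by 0.17.

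Of 16 genes of RNA interference and of the Clr4 histone methyltransferase complex, 9 rose and 3 fell (median 0.11). The factor gene ers1 rose by 0.41 and clr4 by 0.39, and raf2 fell by 0.31 and ago1, the Argonaute gene, fell by 0.22. Of 20 chromatin factor genes 10 fell and 5 rose (median -0.09). The remodeller gene hrp1 fell by 0.35 and pht1, the histone H2A.Z gene, fell by 0.33, while the deacetylase complex genes pst2 and clr6 rose by 0.44 and 0.11. Of the genes named here mtr4, dis3, pab2, pat1, upf3, ers1, clr4, hrp1 and clr6 overlap another gene row. Whether these levels bear on any antisense row was not tested.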

How the data were processed

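Per the labels, a stranded Illumina kit turned poly-A RNA into libraries for a HiSeq 2500, and the counts come from read 1 of each pair; the samples that hold read 2 were not used here. The submitters' processing notes name CASAVA 1.8.2 and Bowtie 0.12.7. What each tool did, the read counter, genome build and annotation are not given in the sources. Per the file headers, the deposited values used are raw read counts per gene, intron and intergenic row. The deposited width of each row was used for densities. The other 14 per-sample columns were not used.

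Pairs and overlaps follow the coordinates in the deposited table. Its introns begin with GT and end in AG in the RefSeq genome (ASM294v3) in 98.7% of 5358 cases, and 1411 of 1430 SPNCRNA rows have the same coordinates there, so sequences and symbols (6867 rows matched) were taken from it. The antisense rows, gene lists and tests were chosen with earlier results of these data known.

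Levels were tested with edgeR 4.0.16 (quasi-likelihood, TMM scaling after filterByExpr, R 4.3.3) on all gene rows. Relative changes were tested in the same way on all opposite-strand pairs with the log of coding reads plus 1 as offset, for rows with at least 20 summed reads and coding rows with at least 20 reads in every library. P-values were adjusted by Benjamini-Hochberg over all rows or pairs, with a threshold of 0.05. Both fits were also run on simulated counts. The simulation of relative changes held the coding reads fixed, so it could not check for their counting error. Each standard error is the log2 change divided by the root of its F statistic. The text names the 10 highest and 10 lowest relative changes among called rows with a mean of at least 50 reads in the strain with more and no overlap of the ratios between strains, then the 5 highest and 5 lowest level changes among called rows with at least 5 CPM, and up to 2 genes each way per list. Among the lowest, 1 row, which both parts of the rule name, is not reported here. Rows shown for simple pairs, introns, cwf10 and meiotic genes were chosen after their values were seen. Alternatives were DESeq2 1.42.0, other scalings and filters, leaving out each library, a replicate block, other offsets and stricter overlaps.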

Additional observations from a re-analysis of the deposited data

How the results depend on the processing

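Precision rests on 2 libraries per strain grown together, and counts without strand limit every relative change. Level calls stayed within 1.5 times the 366 rises and 224 falls under each alternative run: 336 to 350 and 210 to 213 without 1 library, 304 and 200 with DESeq2, 432 and 161 with library totals. Relative calls (139 rises, 64 falls) were 99 to 106 and 40 to 46 without 1 library, the lowest count of falls being without wild-type replicate 1. DESeq2 gave 76 and 33; the cause was not tested. With the rest of the coding row as offset, which only rows wholly inside allow, 68 rose and 24 fell of 228. Fewer rows were tested by construction with 90% overlap (69 and 25 of 382), and, chosen after seeing the data, without a further row (57 and 21 of 376), without a touched intron (70 and 50) and in simple pairs (22 and 5). Replicate numbers did not pair the samples (correlation of same-numbered deviations -0.01), and a replicate block gave 370 and 224 level calls and 128 and 62 relative calls. Of the 19 rows named for relative change only SPNCRNA.498 and SPNCRNA.1317 lost a call, each when 1 library was left out, and no named change reversed.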
